A study of Mus musculus with 20 samples.

Results

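The MHC class II and Langerhans cell genes are a set of 7 mouse genes: the class II chain genes H2-Aa, H2-Ab1 and H2-Eb1, the invariant chain gene Cd74, the peptide exchange gene H2-DMa, the class II transactivator gene Ciita, and Cd207, which encodes langerin. They were chosen by name, and each was found once among the 55471 genes of the count table. The list as given had 8 entries, and the last of them, "Epcam-independent", names no gene and matched no entry, so Epcam itself is shown only beside Cd207. The libraries came from C57BL/6 wild-type mice, which for the skin model were of both sexes and 4 to 6 weeks old at sensitization (no age is given for the pancreas model). Back skin, sampled as epidermis and labelled epithelial skin, had been treated 3 times a week for 22 days. It received acetone (5 libraries) or the contact allergen 2,4-dinitro-1-fluorobenzene (DNFB, 0.25%) in acetone with olive oil (5 libraries). The DNFB protocol began with sensitization to DNFB on the abdomen, and the study does not say whether the acetone mice were sensitized. Pancreas had been taken after PBS injections (5 libraries) or after caerulein, a secretagogue that brings on pancreatitis when given repeatedly, at 50 µg/kg, 6 times a day on 3 days a week for 3 weeks (5 libraries). All 4 groups share the wild-type genotype, and both control groups received the vehicle. The study asked how chronic inflammation induces IL-33, and the libraries compare inflamed tissue with its vehicle control in each organ.

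MHC class II molecules are cell surface heterodimers of an alpha and a beta chain that present peptides to CD4 T cells. Newly made chains bind the invariant chain, which blocks the groove and directs the complex to endosomes, where H2-DM swaps the remaining invariant chain fragment for antigenic peptide. Transcription of the chains, of the invariant chain and of H2-DM depends on CIITA, which binds no DNA itself and is recruited by the factors on the X and Y boxes of their promoters. Dendritic cells, macrophages and B cells carry class II at rest, and interferon gamma can induce it in epithelial cells. Langerhans cells are the resident antigen-presenting cells of the epidermis, and langerin, a lectin of their Birbeck granules, is their defining marker.

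The class II promoters carry the elements through which CIITA works, so the stretches that hold them are printed here for the 2 class II chain genes with a promoter in the RefSeq table (GRCm38.p6). H2-Aa lies at chr17:34282744-34287823 on the minus strand, H2-Ab1 at chr17:34257689-34269419 on the plus strand and H2-Eb1 at chr17:34305867-34316674 on the plus strand. H2-DMa lies in the same cluster at chr17:34119541-34139101, plus strand. Ciita is at chr16:10480059-10528418, plus strand, and Cd207 is at chr6:83671215-83677857, minus strand. Capitals mark the X box core (GCAAC) and the Y box core (GATTGG, the inverted CCAAT), each printed 5′ to 3′ on the strand of its gene. The Cd207 stretch at the same distance from its start is given for comparison and holds neither.
H2-Aa, chr17:34287847-34287924, minus strand: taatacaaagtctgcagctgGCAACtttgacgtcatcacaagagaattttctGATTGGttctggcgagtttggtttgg
H2-Eb1, chr17:34305756-34305832, plus strand: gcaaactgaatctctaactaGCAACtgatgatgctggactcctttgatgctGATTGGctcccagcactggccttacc
Cd207, chr6:83677881-83677958, minus strand: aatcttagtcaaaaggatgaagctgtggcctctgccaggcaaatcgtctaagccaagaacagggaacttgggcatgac

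In H2-Aa the 2 cores began 81 and 49 bases before the start, and in H2-Eb1 they began 91 and 60 bases before it, so they were 32 and 31 bases apart. Of 32851 mouse promoter windows of 250 bases, 29.9% held the X core and 14.6% the Y core on either strand. An X core followed by a Y core on the gene's strand within 40 bases was found in 94 windows, 0.286% of them. The letters and the distance were set after these promoters had been read, so the share is a description. Neither of the 2 H2-DMa windows and not the Cd207 window held the pair.

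Between 791491 and 2232039 counts were deposited per library, but 12 predicted genes with satellite-like sequence took 37.9% to 94.3% of them. The counts outside those genes, which set the precision for the members, ranged from 69592 to 1073987. Acetone 11 and 12 stood apart from the other skin libraries, with 1073987 and 938689 such counts against 92640 to 152978 in acetone 1, 2 and 3. The DNFB libraries held 150167 to 685481, so acetone 1, 2 and 3 lay at or below the lower end of the DNFB range. Acetone 11 and 12 also had summed levels of 9 macrophage genes of 626 and 903 normalised CPM. These sums were 38.7 to 79.5 in acetone 1, 2 and 3 and 32.7 to 142.8 in DNFB. Libraries are named here by treatment and label number, and the numbers 1 to 10 and 11 to 20 are treated as 2 series because the labels give them no further meaning. The tissue labels were checked against their markers: 8 keratinocyte genes summed to between 225 and 3140 normalised CPM in skin, and 9 acinar genes to between 792 and 79240 in pancreas. In the other tissue the keratinocyte sums were 1.80 to 15.8 and the acinar sums 0.78 to 48.0. DNFB 14 had the lowest keratinocyte sum in skin, 225, and the highest acinar sum there, 48.0. Its sum of 6 pancreatic duct genes was 491.9, against 146.1 in DNFB 13, the next highest skin library. In bulk tissue, fewer cells of a type and less RNA per cell cannot be told apart.

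The class II chain genes were higher in caerulein-treated than in PBS-treated pancreas, and no library of one group overlapped the other for any of the 3. Levels are normalised CPM, that is read counts relative to the scaled size of each library, set within each tissue. H2-Aa, which encodes the alpha chain of the I-A molecule, stood at 4.39, 9.59, 11.9, 16.2 and 4.64 normalised CPM in PBS 7, 8, 15, 16 and 17. In caerulein 9, 10, 18, 19 and 20 it stood at 16.97, 71.6, 30.4, 109.2 and 54.3 normalised CPM. The lowest inflamed library lay just above the highest control. The fitted log2 fold change was 2.61 (SE 0.68, adjusted p = 0.024, edgeR quasi-likelihood test).

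H2-Ab1, which encodes the beta chain of I-A, had the most counts of the members in pancreas. It was at 8.79, 18.3, 0, 8.99 and 10.8 normalised CPM in PBS 7, 8, 15, 16 and 17. In caerulein 9, 10, 18, 19 and 20 it was at 42.4, 178.3, 57.7, 234.4 and 115.2 normalised CPM. All 5 inflamed libraries exceeded 2 times the highest control. Its log2 fold change was 3.69 (SE 0.81, edgeR adjusted p = 0.012).

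H2-Eb1, the beta chain gene of the I-E molecule, is expressed in this strain although its partner is not made: the alpha chain gene of I-E, annotated as H2-Ea-ps, had 1 count in each pancreas group. H2-Eb1 was at 1.46, 9.59, 0, 7.19 and 1.55 normalised CPM in PBS 7, 8, 15, 16 and 17, and at 15.8, 55.3, 26.5, 71.3 and 39.3 in caerulein 9, 10, 18, 19 and 20. Caerulein 9 was again the lowest inflamed library and caerulein 19 the highest. The log2 fold change was 3.29 (SE 0.76, edgeR adjusted p = 0.016).

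Cd74, the invariant chain gene on chromosome 18, was the only one of the 4 fitted members whose groups overlapped in pancreas. It stood at 19.04, 17.4, 9.92, 23.4 and 6.18 normalised CPM in PBS 7, 8, 15, 16 and 17. In caerulein 9, 10, 18, 19 and 20 it stood at 12.1, 133.9, 35.9, 207.8 and 90.5 normalised CPM. Caerulein 9 lay inside the PBS range, and the other 4 lay above it. The log2 fold change was 2.66 (SE 0.76, edgeR adjusted p = 0.034).

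Thus 4 of the 4 members that passed the filter on low counts were called higher in the inflamed pancreas, where 8.14% of the 946 genes tested were. Groups without overlap and caerulein higher were found for 2.54% of those genes. The 4 members passed the filter through the caerulein libraries: all 5 of these exceeded the filter level for each gene, but only 1 PBS library did for each class II chain gene and 3 did for Cd74. A gene that passes in this way had to differ, so the counts describe these genes and add no support. DESeq2, which tested 8557 genes and called 7.63% of them higher, called the same 4 members, with log2 fold changes from 3.29 to 4.23, and called neither H2-DMa nor Ciita. Nothing in the labels says that the libraries of a group came from separate mice, so the p-values measure the spread between these samples.

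The pancreas calls rested on few control counts. The 5 PBS libraries held 32 H2-Aa, 39 H2-Ab1, 17 H2-Eb1 and 55 Cd74 counts in all, against 1114, 2504, 803 and 1998 in the caerulein libraries. Counts outside the satellite-like genes were 630786 in PBS and 1751178 in caerulein, so raw counts alone overstate the differences between these groups. Leaving out PBS 7 left 0 of the 4 members past the threshold in edgeR, although all 4 kept an unadjusted p under 0.05, and leaving out PBS 15, 16 or 17 left 1. In these 4 fits the log2 fold changes stayed between 2.18 and 3.51, while the adjusted p ran from 0.044 to 0.13 over 1555 to 1620 genes tested. Among those genes, 11 were called higher without PBS 7, and 20, 17 and 20 without PBS 15, 16 and 17. Without caerulein 19, 2 were called, and without caerulein 10 or 20, 3 were. Within numbers 11 to 20 all 4 members were called, with log2 fold changes from 2.71 to 4.47. Over all genes, 259 of 1196 were called higher there and 1 of 1388 within numbers 1 to 10. Within numbers 1 to 10, with 2 libraries a group, none was called by edgeR, 1 had an unadjusted p under 0.05, and the log2 fold changes were 1.996 to 3.03.

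**Figure D1:**
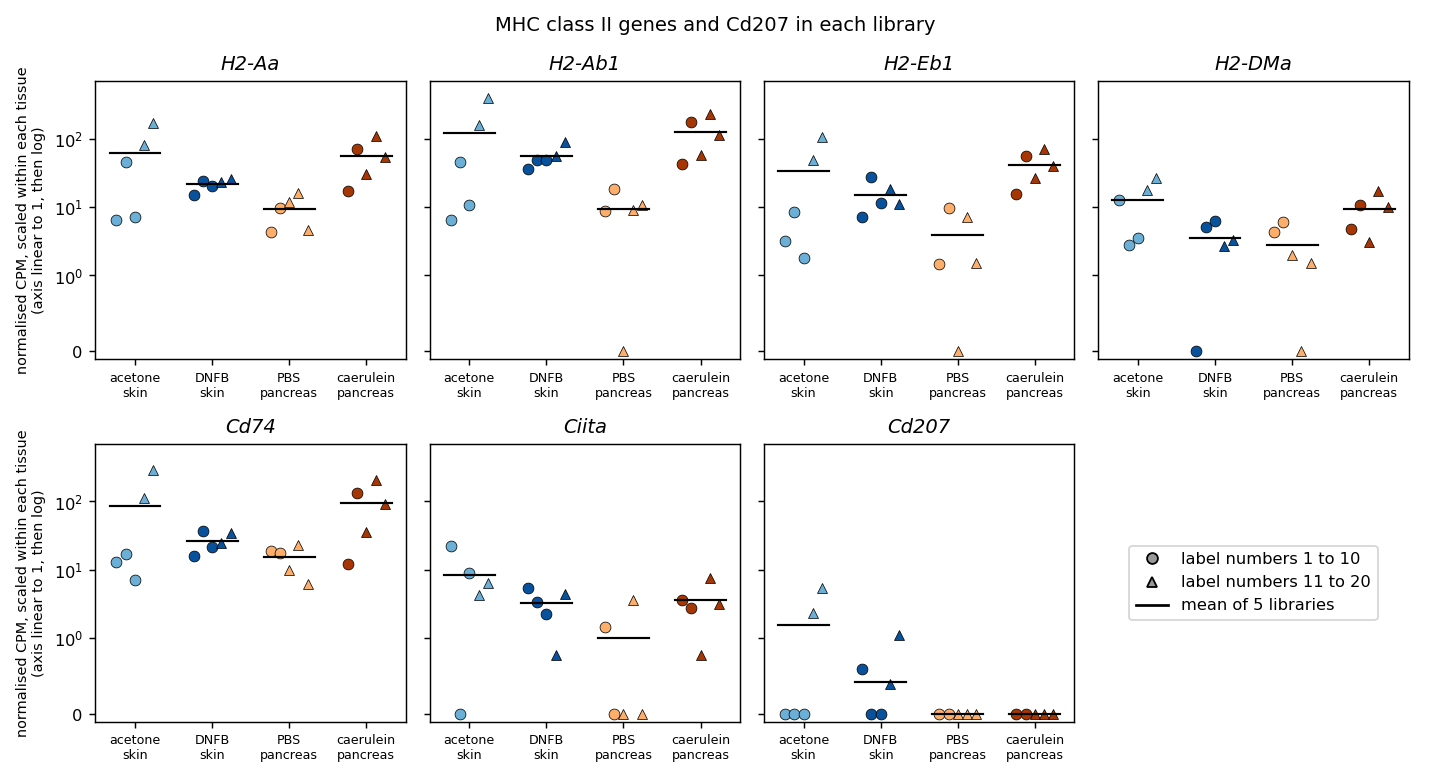
Normalised CPM (vertical axis, scaled within each tissue, linear to 1 and logarithmic above) of the 7 genes in each library, by group on the horizontal axis. Circles are label numbers 1 to 10, triangles label numbers 11 to 20 and bars the mean of 5 libraries. The acetone mean of H2-Ab1, 123.0, is set by acetone 11 and 12 at 156.5 and 396.2, and every caerulein value of H2-Ab1 lies above every PBS value.

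In skin the same 4 genes showed no call in either direction, and their levels in the acetone libraries divided by label number. H2-Ab1 was at 6.44, 45.4 and 10.7 normalised CPM in acetone 1, 2 and 3, and at 156.5 and 396.2 in acetone 11 and 12. In DNFB 4, 5, 6, 13 and 14 it was at 36.3, 49.3, 49.3, 55.6 and 90.4 normalised CPM. The DNFB libraries lay close together, all 5 below acetone 11 and 12 and 4 of the 5 above acetone 1, 2 and 3. The group means were 123.0 ± 164.3 (SD, n = 5) for acetone and 56.2 ± 20.4 (SD, n = 5) for DNFB.

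H2-Aa was also highest in acetone 11 and 12 but in no DNFB library above acetone 2. It was at 6.44, 45.4, 7.12, 81.8 and 170.0 normalised CPM in acetone 1, 2, 3, 11 and 12. In DNFB 4, 5, 6, 13 and 14 it was at 14.9, 23.8, 20.6, 23.1 and 25.7. H2-Eb1 was at 3.22, 8.52, 1.78, 48.8 and 107.7 normalised CPM in the acetone libraries in the same order, and at 7.14, 27.2, 11.6, 18.4 and 11.2 in the DNFB libraries. Cd74 was at 12.9, 17.04, 7.12, 112.8 and 284.7 normalised CPM in the acetone libraries and at 16.1, 37.4, 21.3, 24.7 and 34.6 in the DNFB libraries. For each of the 4 genes the DNFB range lay inside the acetone range.

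The fitted log2 fold changes of DNFB against acetone were -1.58 (SE 0.72) for H2-Aa, -1.16 (SE 0.85) for H2-Ab1, -1.33 (SE 0.78) for H2-Eb1 and -1.75 (SE 0.83) for Cd74. None of the 4 was called by edgeR's quasi-likelihood test, with adjusted p from 0.82 to 0.97. Over all 7265 genes tested, 0.0138% were called lower in DNFB. At an unadjusted p under 0.05 there were 2, H2-Aa and Cd74, and DESeq2 called 0 of the 6 members it tested while 3 had an unadjusted p under 0.05. The mean log2 difference over all 10 skin libraries, with 1 count of the median library added, was 0.20 for H2-Ab1 and 0.059 for H2-Eb1. For H2-Aa it was -0.57 and for Cd74 -0.46 (exact permutation p from 0.56 to 0.94 over the 4). The sign for H2-Ab1 and H2-Eb1 thus depended on the measure. Leaving out acetone 11 and 12 turned the fitted direction of all 4, to 0.25 for H2-Aa, 1.52 for H2-Ab1, 1.83 for H2-Eb1 and 1.19 for Cd74, again with no call (edgeR adjusted p 0.43 to 0.95). In that fit H2-Ab1 and H2-Eb1 had an unadjusted edgeR p under 0.05, both with higher levels in DNFB.

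The 2 label-number series gave opposite signs in skin. Within numbers 1 to 10 the log2 fold changes were 0.12 for H2-Aa, 1.23 for H2-Ab1, 1.77 for H2-Eb1 and 1.05 for Cd74, and within numbers 11 to 20 they were -2.41, -1.98, -2.39 and -2.80. In that second series Cd74 (edgeR adjusted p = 0.048) and H2-DMa (-2.94, adjusted p = 0.023) were called lower among 11259 genes tested, of which 1.79% were called lower. A test of the difference between the series called none of the 4 members (edgeR adjusted p from 0.20 to 0.33), and 3 of them had an unadjusted p under 0.05. Each series holds 2 or 3 libraries a group, and these fits were added after the split had been seen.

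**Figure D2:**
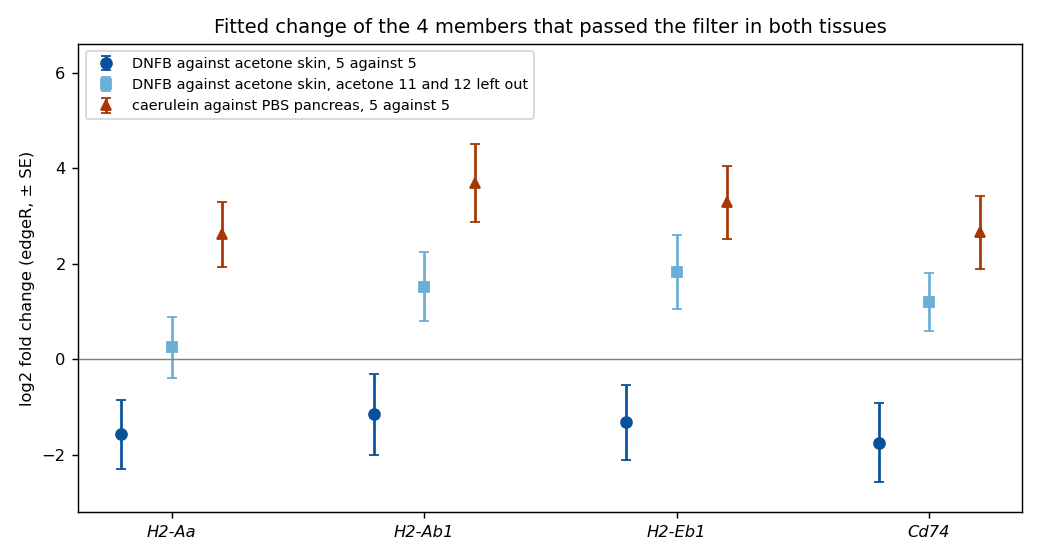
Fitted log2 fold change with its SE (vertical axis) of the 4 genes that passed the filter in both tissues (horizontal axis). Circles show DNFB against acetone with 5 libraries a group, squares the same without acetone 11 and 12, and triangles caerulein against PBS. The skin values change sign when the 2 acetone libraries are left out (Cd74 from -1.75 to 1.19), and the pancreas values lie between 2.61 and 3.69.

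H2-DMa encodes the alpha chain of H2-DM, and it was too low for the fit in either tissue. In pancreas it had 3, 7, 1, 0 and 1 counts in PBS 7, 8, 15, 16 and 17, and 4, 55, 4, 68 and 51 in caerulein 9, 10, 18, 19 and 20. Scaled, these were 2.80 ± 2.42 and 9.28 ± 5.67 normalised CPM (SD, n = 5 each), and the groups overlapped. The mean log2 difference was 1.53, with 1 count of the median library added (exact permutation test, two-sided p = 0.040, where 5 against 5 allows no p below 0.0079). Leaving out any one of PBS 15, 16 and 17 or caerulein 10, 19 and 20 moved this p to 0.079. In skin it had 4, 1, 2, 90 and 101 counts in acetone 1, 2, 3, 11 and 12, and 0, 3, 17, 7 and 3 in DNFB 4, 5, 6, 13 and 14. The skin difference was -1.57 (exact permutation p = 0.087), and without acetone 2 it was -1.95 (exact permutation p = 0.048). Without acetone 11 and 12 it was -0.80 (exact permutation p = 0.39), and the ratio of pooled acetone to DNFB counts went from 5.50 (exact 95% interval 3.73 to 8.37, counting error only) to 1.60 (0.593 to 3.72). Within numbers 1 to 10 the difference was -0.91.

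Ciita, the transactivator gene, was low everywhere and did not follow the chain genes closely in skin. It had 7, 0, 5, 22 and 24 counts in acetone 1, 2, 3, 11 and 12, and 9, 2, 6, 2 and 4 counts in DNFB 4, 5, 6, 13 and 14. As normalised CPM the acetone values were 22.6, 0, 8.90, 4.29 and 6.45, so acetone 1 was highest and acetone 11 and 12 were above acetone 2 alone. The acetone 1 and 3 values rest on 7 and 5 counts, where 3 counts equal 9.67 and 5.34 normalised CPM. The contrast with the chain genes thus rests on few counts. The skin difference was -0.67 (exact permutation p = 0.48) and, without acetone 2, -1.39 (exact permutation p = 0.048). In pancreas Ciita had 3 counts over the 5 PBS libraries and 64 over the 5 caerulein libraries. After scaling, that was a ratio of 4.68 (exact 95% interval 1.53 to 23.3, counting error only). The mean log2 difference of 1.32 gave an exact permutation p of 0.063, and 1.85 with p = 0.024 when libraries were scaled by their counts outside the satellite-like genes. Without PBS 16 or caerulein 18 the exact permutation p was 0.032 and 0.048.

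Cd207 was nearly undetected. All of its 32 acetone counts were in acetone 11 (12 counts) and acetone 12 (20 counts), and the DNFB libraries held 3 counts in all, 1 each in DNFB 4, 13 and 14. Per 100000 counts outside the satellite-like genes this was 1.12 and 2.13 in acetone 11 and 12. In acetone 1, 2 and 3 together the count was 0 of 369465, which allows up to 0.812 per 100000. Acetone exceeded DNFB by a ratio of 8.89 over pooled counts (exact 95% interval 2.78 to 45.4, counting error only). Between libraries the mean log2 difference was -0.46 (exact permutation p = 0.56), and it turned to 0.038 without acetone 12 and to 0.54 without both libraries.

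No Cd207 count was found in any of the 10 pancreas libraries, which allows up to 0.476 per 100000 in PBS and 0.171 in caerulein. Epcam, an adhesion molecule of both Langerhans cells and epithelia, had 366 counts in acetone and 231 in DNFB skin, with a log2 fold change of -0.17 (SE 0.74, edgeR adjusted p = 0.99). Its mean log2 difference there was 0.66 (exact permutation p = 0.64). In pancreas Epcam had 4 counts in PBS and 206 in caerulein, 176 of them in caerulein 20. The label of Langerhans cell genes was thus borne by 35 Cd207 counts among 4392717 usable skin counts.

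The class II genes were counted mostly in acetone 11 and 12, as were most macrophage genes but not all dendritic cell genes. Acetone 11 and 12 held 45.8% of all usable skin counts. They held 84.2% of the H2-Aa, 82.9% of the H2-Ab1, 84.3% of the H2-Eb1, 83.8% of the H2-DMa, 88.4% of the Cd74 and 91.4% of the Cd207 counts, but 56.8% of the Ciita and 59.3% of the Epcam counts. Of 9 macrophage genes, 8 had a share above 45.8% there, among them the complement gene C1qa at 93.9%, and Mpeg1 had 32.7%. Of 10 conventional dendritic cell genes, 6 did, among them Mgl2, a lectin of dermal dendritic cells and macrophages, at 95.6%, whereas Flt3 (6.25%), Clec9a (6.38%), Xcr1 (11.8%) and Zbtb46 (33.8%) did not. Csf1r, the receptor for CSF1 and IL-34 on macrophages and Langerhans cells, had 91.5%. Mgl2 was the single gene of the other cell type lists that was lower without overlap in DNFB skin. It was at 0.15 ± 0.33 against 11.6 ± 12.6 normalised CPM (SD, n = 5). DESeq2 called Mgl2 (adjusted p = 0.0054) while edgeR's filter removed it. It had 2 counts in DNFB and 179 in acetone, 173 of them in acetone 11 and 12. Among the 7265 genes that edgeR tested, 50 were lower without overlap, and DESeq2 called 40 of 21764 genes lower. Il34, a ligand for Csf1r that keratinocytes make and Langerhans cells need, had 163 of its 173 skin counts in acetone 11 and 12. The part of these cell types in the skin values was not tested.

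In pancreas some markers of B cells and macrophages rose beside the class II genes, and acinar genes fell. Ighm, the heavy chain of IgM, was at 39.7 ± 22.7 normalised CPM in PBS and 490.5 ± 478.5 in caerulein (SD, n = 5), with a log2 fold change of 3.63 (SE 0.88, edgeR adjusted p = 0.020). Lyz2, the lysozyme of myeloid cells, was at 16.8 ± 27.2 and 424.0 ± 470.4, with a log2 fold change of 4.60 (SE 1.08, edgeR adjusted p = 0.017). Of 9 acinar genes, 8 were called lower, the pancreatic lipase gene Pnlip most steeply at -4.59 (SE 0.91, edgeR adjusted p = 0.012). Caerulein 9, with the lowest class II levels, had summed levels of 38.8 for 6 B cell genes, 89.7 for 9 macrophage genes and 4848 for the acinar genes, and caerulein 19, with the highest, had 1312, 918 and 1048 normalised CPM. PBS 8 had a macrophage sum of 165.6, above that of caerulein 9, with lower class II levels. Ighm and Lyz2 were the single genes that edgeR called among the 1 B cell and 3 macrophage genes it fitted (adjusted p = 0.13 for C1qa and 0.11 for C1qb). The mean log2 difference was positive for 9 of 9 macrophage but 4 of 6 B cell genes, with Ms4a1, which encodes CD20, at -0.34 and Pax5 at -0.039. The DESeq2 log2 fold changes were positive for all 6 B cell genes, with Ms4a1 at 0.23 and Pax5 at 0.98, neither called. Ighm held 10432 of the 11028 B cell counts in caerulein, and DESeq2 called 2 genes of each list. Other lists had genes called higher by DESeq2 as well, where it called 7.63% of all genes. These were 1 of 3 tested conventional dendritic cell genes and 1 of 3 tested dendritic cell activation and migration genes. So were 3 of 5 pan-leukocyte and 3 of 5 pancreatic duct genes, but 0 of 3 tested T cell genes. In edgeR 3 pan-leukocyte and 2 pancreatic duct genes passed the filter, and 0 of them were called. The filter left 0 genes of the 2 dendritic cell lists and of the T cell list, so edgeR could call none there. The part of these cell types in the class II values was not tested.

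**Figure D3:**
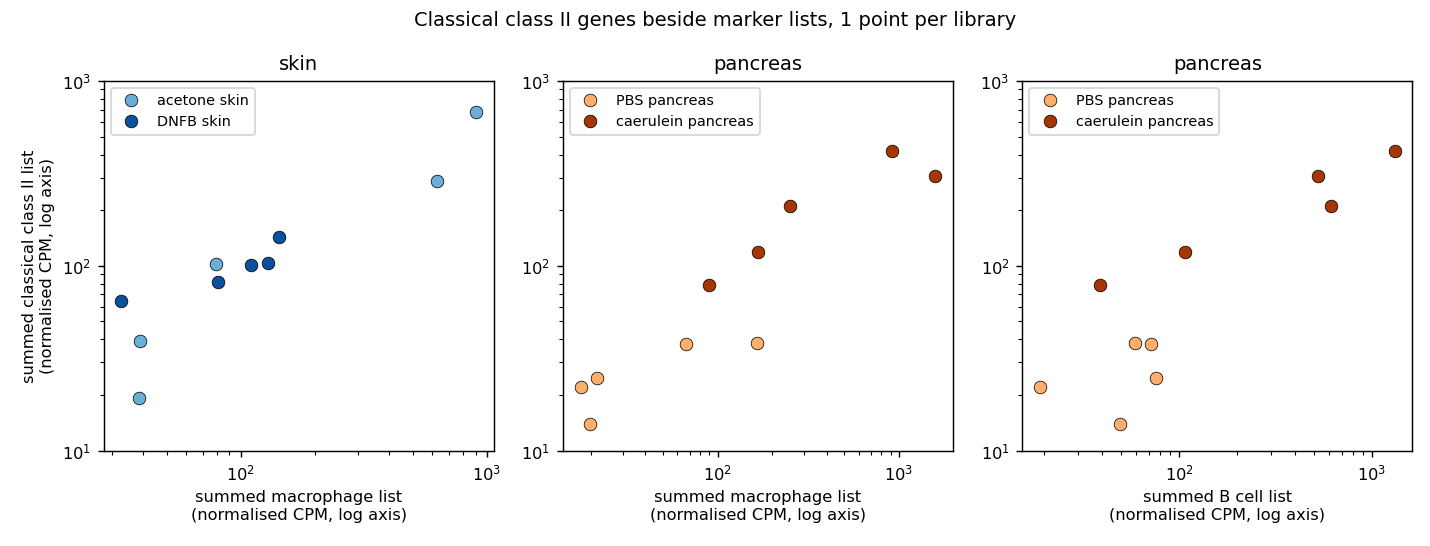
Summed normalised CPM of the 5 classical class II genes (vertical axis, log) against summed macrophage genes in skin (left), macrophage genes in pancreas (middle) and B cell genes in pancreas (right; horizontal axes, log), 1 point per library, coloured by group. In the skin panel, acetone 11 and 12 lie far from the rest on both axes (class II at 287.8 and 678.4). In the pancreas panels the groups overlap on the horizontal axes, and the lowest caerulein class II sum, 78.8, is above the highest PBS sum of 38.4.

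Other genes of the class II route were described from a list, by counts and levels alone. Of 5 classical class II genes, 3 passed the filter in each tissue, all of them members, and H2-Eb2, a further beta chain gene, had 34 DNFB, 30 acetone, 19 caerulein and 14 PBS counts with no edgeR fit. Of 6 chaperone and peptide exchange genes only Cd74 passed. H2-DMb1, the partner of H2-DMa, had 138 caerulein against 4 PBS counts and 31 DNFB against 158 acetone counts, and DESeq2 called neither difference (adjusted p = 0.067 and 0.75). Scaled, H2-DMb1 was at 5.89 ± 5.33 in caerulein and 1.24 ± 0.81 normalised CPM in PBS (SD, n = 5), and the groups overlapped. In skin its mean log2 difference was -0.0075, with 1 count of the median library added. H2-Ob, a subunit of H2-DO, which restrains H2-DM in B cells, had 102 caerulein against 7 PBS counts (DESeq2 adjusted p = 0.22). Scaled, H2-Ob was at 5.24 ± 3.88 and 2.45 ± 4.70 normalised CPM (SD, n = 5), with overlap. Of the 8 regulators, 3 passed in skin (Nfyb, Nfyc and Creb1, which bind the Y box or the X2 element) and none was called, with a median log2 fold change of -0.16 beside 0.02 over all genes. None of the 8 passed in pancreas.

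Among 8 antigen processing genes, 4 passed the filter in pancreas and 1 was called. This was Ctsl, the protease cathepsin L, which trims the invariant chain in some cells, at 6.73 ± 3.45 in PBS and 41.9 ± 29.5 normalised CPM in caerulein (SD, n = 5), with a log2 fold change of 2.60 (SE 0.68, edgeR adjusted p = 0.024) and no overlap. The median of the 4 was 1.68, beside -0.0026 over all genes. These genes met the same filter as the members, and Ctsl had 26 counts in PBS against 885 in caerulein. The median is therefore a description and adds no support. Ctss, cathepsin S, which does this in B cells and dendritic cells, had 870 caerulein against 9 PBS counts, was filtered out by edgeR and was called by DESeq2 (adjusted p = 0.0027). Scaled, Ctss was at 38.6 ± 43.9 and 2.38 ± 2.19 normalised CPM (SD, n = 5), with overlap. In skin all 8 passed and none was called, with a median of 0.25.

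The Langerhans cell list had 11 genes, with Cd207 and Epcam among them. In skin 3 of them passed the filter (Epcam, Cd24a and Id2), 2 were positive, 1 was negative and none was called, with a median log2 fold change of 0.02, equal to that of all genes. Without acetone 11 and 12 the 3 were all positive, with a median of 1.15 beside 0.16 over all genes, again with none called. Summed over the 11 genes the level was 24.9 to 90.9 normalised CPM in acetone 1, 2 and 3, 161.6 and 219.4 in acetone 11 and 12, and 40.8 to 127.7 in DNFB. In pancreas 10 of the 11 had a count, and the 1 that passed edgeR's filter, Cd24a, was not called. DESeq2 called 1, Csf1r, at a log2 fold change of 2.86 (adjusted p = 0.020). Epcam, Cd24a and Id2 are also expressed by keratinocytes, so the genes of this list that passed do not tell the 2 cell types apart.

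Interferon gamma is a known inducer of Ciita, and the list of its response genes held 1 gene without overlap in pancreas. Gbp2, an interferon-induced GTPase, was at 1.59 ± 0.97 in PBS and 8.40 ± 5.94 normalised CPM in caerulein (SD, n = 5). It did not pass the edgeR filter, and DESeq2 called it (adjusted p = 0.025). Of the 7 genes of the list, 0 passed that filter in pancreas. DESeq2 tested 5 of them, all 5 positive, and called 3 higher. Their median log2 fold change was 3.04, beside 0.61 over all genes that DESeq2 tested. The whole list had 29 counts in PBS and 767 in caerulein, so few control counts limit these values. Its summed level was 4.39 to 14.4 normalised CPM in PBS and 13.3 to 59.2 in caerulein, so the groups overlapped. In skin 5 of the 7 passed and none was called.

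The treatment effects in the 2 tissues were also set against each other in 1 edgeR fit of 8336 genes. DNFB minus caerulein, the log2 difference was -4.04 (SE 0.996) for H2-Aa, -4.57 (SE 1.203) for H2-Ab1, -4.34 (SE 1.15) for H2-Eb1, -4.21 (SE 1.14) for Cd74, -3.35 (SE 1.03) for H2-DMa and -3.18 (SE 1.204) for Ciita. The median over all genes was -0.38. None of the 6 passed the threshold (edgeR adjusted p from 0.067 to 0.17), where 0.216% of genes were called in that direction, although all 6 had an unadjusted p under 0.05. DESeq2 called all 6, with adjusted p from 0.0022 to 0.033, where it called 3.54% of 16530 genes in that direction. Leaving out acetone 1, acetone 3, PBS 8, caerulein 9 or caerulein 18 let edgeR call 4 or 5 of them. More genes were called in that direction over all genes too. These were 58 of 9502, 282 of 9506, 165 of 9755, 204 of 9761 and 118 of 9702, against 18 of 8336 with all libraries. Without acetone 11 and 12 none was called, 2 had an unadjusted p under 0.05, and the differences of 5 members were smaller, the least being -1.45 for H2-Eb1, while that of Ciita was -3.68.

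Caerulein pancreas had the highest mean log2 level of the 4 groups for 6 of the 7 genes, with all 20 libraries scaled together. On that scale H2-Ab1 averaged 16.3 in PBS pancreas, 68.8 in acetone skin, 34.6 in DNFB skin and 196.1 normalised CPM in caerulein pancreas, and on the log scale acetone lay below DNFB. None of the 20 tests between neighbouring groups passed after adjustment, and 3 had an unadjusted exact permutation p under 0.05. Those were the steps from DNFB skin to caerulein pancreas for H2-Ab1 (2.25) and H2-Eb1 (2.61), each at p = 0.0079, the smallest that 5 against 5 allows (adjusted p = 0.079), and from PBS to caerulein pancreas for Cd74 (2.15, exact permutation p = 0.032, adjusted p = 0.21). Neighbours such as acetone and DNFB skin for H2-Eb1, which differed by 0.05 (exact permutation p = 0.94), were not separated from each other. For Cd207 the order was acetone skin, then DNFB skin, then both pancreas groups at 0.

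Per kilobase of the principal transcript, H2-Ab1 was the highest member in caerulein pancreas at 103.6 normalised CPM per kb, followed by Cd74 at 68.1, H2-Aa at 50.1 and H2-Eb1 at 24.96. H2-DMa stood at 5.60 and Ciita at 0.60. The same order held in acetone and DNFB skin for these 4 leading genes except that H2-Aa (19.1) and Cd74 (19.01) lay side by side in DNFB. Principal transcript lengths ran from 1128 bases for H2-Aa to 6007 for Ciita.

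Within a library the proportion of H2-Ab1 to Cd74 counts needs no scaling between libraries. It was 1.39 (95% interval 1.25 to 1.55, counting error only) in acetone 11 and 1.39 (1.29 to 1.51) in acetone 12. In DNFB 4, 5, 6, 13 and 14 it was 2.26, 1.32, 2.32, 2.25 and 2.61, with 22 to 63 Cd74 counts each. In caerulein 10, 18, 19 and 20 it was 1.33, 1.61, 1.13 and 1.27. Thus 4 of the 5 DNFB libraries had point values above all others, and the intervals of DNFB 6, 13 and 14 began above the intervals of both acetone libraries. Acetone 1, 2 and 3 had too few Cd74 counts for a ratio, so this gives no comparison of the 2 groups, and it was chosen after its values were seen.

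**Figure D4:**
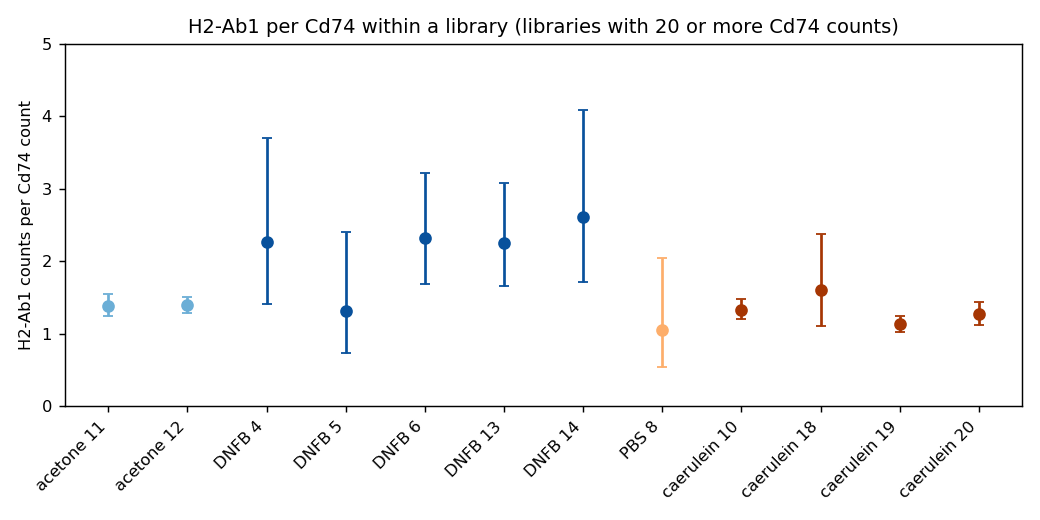
Count ratio of H2-Ab1 to Cd74 (vertical axis, from 0) in each library with 20 or more Cd74 counts (horizontal axis), with exact 95% intervals for counting error. Both acetone libraries lie at 1.39, and 4 of the 5 DNFB libraries lie between 2.25 and 2.61.

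Genes whose pattern was most like that of H2-Ab1, the member with the most counts in both tissues, were ranked by Pearson's r of log2 levels over the 10 libraries of a tissue. In skin, among 7265 genes, the 5 nearest other than members were the chemokine gene Ccl6 (r = 0.95), Fstl1 (0.95), the transferrin gene Trf (0.95), Adipor1 (0.94) and Arhgdib (0.94), and H2-Aa, H2-Eb1 and Cd74 ranked 4, 10 and 15. In pancreas, among 946 genes, they were Tmem176b (0.98), the caveolin gene Cav1 (0.97), Prdx5 (0.95), Nfkbia (0.95) and Ywhaz (0.94), with H2-Eb1 at rank 3, Cd74 at 101 and H2-Aa at 127. These libraries share treatment, depth and composition, so the values are a description.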

How the data were processed

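RNA from mouse epidermis and pancreas was sequenced as Smart-Seq2 libraries without molecular identifiers. By the submitters' processing notes, the authors aligned reads with STAR 2.5.3 to GRCm38 and deposited expected counts per gene from RSEM 1.3.1. Here the expected counts (94.7% already whole) were rounded. Ensembl identifiers were given GENCODE M21 symbols. Genes were filtered with edgeR's filterByExpr (minimum count 10), scaled by TMM and tested with the quasi-likelihood test in edgeR 4.0.16, per tissue and for the tissue by treatment interaction, with Benjamini-Hochberg adjustment over all genes tested and a threshold of 0.05. DESeq2 1.42.0 was an alternative. Normalised CPM are CPM of the TMM-scaled library size. Members below the filter got an exact permutation test, two-sided, on log2 normalised CPM (scipy 1.17.1), with 1 count of the median library added. The scripts' tests were tried on simulated data.

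The depth was low: 12 satellite-like predicted genes took most counts, and the counts outside them limit precision. High repeat content lowers the number of genes that pass the filter, and without molecular identifiers PCR copies are counted, so intervals cover counting error only. No 2 libraries were identical over the 40 pairs within groups.

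The members and lists were chosen with earlier results of these data known. Besides the 7 members and Epcam, names were drawn from list genes past the adjusted threshold and from the 5 genes most like the leading member. They were also drawn from genes without overlap between groups and with 10 or more counts, up to 4 per list. Not every such gene was named. Of the 8 acinar genes called lower in pancreas only Pnlip was, and Tyrobp, without overlap there, was left out. Some genes called by DESeq2 alone were given only as counts. H2-Eb2, H2-Ea-ps, H2-DMb1, H2-Ob, Nfyb, Nfyc, Creb1, Ctss, Cd24a, Id2, Il34, Csf1r, C1qa, C1qb, Mpeg1, Flt3, Clec9a, Xcr1, Zbtb46, Ms4a1 and Pax5 were named after their values were seen. The label-number series fits and the library ratios were added after seeing the data.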

Additional observations from a re-analysis of the deposited data

Results flagged for a closer look

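One value stood far from the others of its group. H2-Ab1 had 0 counts in PBS 15, where the other 4 PBS libraries lay between 8.79 and 18.3 normalised CPM. Its gap to the nearest of them took 0.77 of the group's whole range on the log2 scale, above Dixon's 95% critical value of 0.71 for 5 samples. PBS 15 has the fewest counts outside satellite-like genes (69592). Over 26 sets of 5 values, 1 passed this limit, where chance gives 1.3.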

How the results depend on the processing

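No paired analysis was possible because the labels number the libraries 1 to 20 without repeats. In skin, 0 members were called in the edgeR fit and in each alternative except within label numbers 11 to 20, where 2 were. Directions turned without acetone 11 and 12 (0.25 for H2-Aa, 1.52 for H2-Ab1, 1.83 for H2-Eb1, 1.19 for Cd74, 0.54 for Cd207), within label numbers 1 to 10 (0.12, 1.23, 1.77 and 1.05 for the first 4) and without acetone 12 (0.038 for Cd207, whose value ran from -0.71 to 0.038 when 1 library was left out). With all skin libraries kept, the mean log2 difference was already positive for H2-Ab1 (0.20) and H2-Eb1 (0.059), unlike the fitted values. In pancreas, 4 members were called under other scalings, filters and DESeq2, 0 to 4 when 1 library was left out, and 0 within label numbers 1 to 10. Over all genes, 554 of 946 were called higher with library totals alone and 54 of 711 with DESeq2 size factors in edgeR. Without satellite-like genes 52 of 1174 were, with no filter 1237 of 38895, and with at least 10 counts in all 897 of 19937. With library totals alone as the scale, the pancreas median over all genes was a log2 fold change of 1.86. For the interaction, 6 members were called by DESeq2 and with no filter. With DESeq2 size factors in edgeR, and with at least 10 counts in all, 4 were. Without satellite-like genes 1 was called, and 0 to 5 were when 1 library was left out. With library totals alone, with the label-number series as covariate and without acetone 11 and 12, 0 were called. Over all genes, those called lower in skin were 585 of 16530 by DESeq2, 933 of 45075 with no filter and 92 of 5445 with DESeq2 size factors. With at least 10 counts in all 178 of 29521 were, and without satellite-like genes 32 of 5020. Of the members below the filter, 1 comparison had p under 0.05, and 2 had when scaled by counts outside satellite-like genes. The cause was not tested. The order of the 4 groups gave 0 adjusted calls under both scalings. The number of genes called differed too: 77 higher and 38 lower in pancreas by edgeR against 653 and 95 by DESeq2, and 2 and 1 in skin against 38 and 40. Low control counts in pancreas limit each fold change there.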
